A study of Homo sapiens with 25 samples.

Results

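The genes described here are 36 genes of the lysosome, the acidic organelle in which cells break down proteins, sugars and lipids: 21 hydrolases, cofactors and membrane proteins, and 15 genes of the proton pump that acidifies it. They were chosen by name from a table of 60179 genes, and all 36 were found under a single identifier each and were among the 13753 genes abundant enough to be tested. The RNA comes from HEC-1A, an established epithelial cell line from a human endometrial adenocarcinoma, in 3 groups of 3 RNA-seq libraries: cells left untreated, cells given 20 µM THC (tetrahydrocannabinol, the main psychoactive compound of cannabis) for 24 h, and cells given 20 µM THC for 72 h. ATAC-seq, which marks accessible DNA, covered the same 3 conditions with 3 libraries each, and CUT&RUN for H3K4me3, a histone mark of active promoters, covered 3 untreated libraries and 3 libraries of cells given 20 µM THC for a time the labels do not state. The untreated libraries carry no time, so time in culture and THC exposure cannot be told apart, and the labels name no vehicle for them. The labels speak of biological replicates of this single cell line but name no separate cultures, and the p-values therefore reflect no more than the scatter of these libraries, which may be technical.

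Lysosomal hydrolases are made in the endoplasmic reticulum, mostly tagged with mannose 6-phosphate in the Golgi and activated in the lysosome, where low pH suits them. The pump, or V-ATPase, is a rotary machine: its cytosolic V1 sector burns ATP and turns a ring of the membrane-bound V0 sector, which carries protons inward. Many lysosomal genes have promoters with the CLEAR element, an E-box (CACGTG) with flanking bases that is bound by the MiT/TFE transcription factors TFEB, TFE3 and MITF, and these factors are held in the cytosol by mTORC1 signalling at the lysosome surface. In epithelial cells the same organelle also recycles plasma membrane lipids and the material delivered by autophagy.

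RNA levels are TPM, a share of each library scaled by transcript length, so the 3 conditions are compared as shares of the total RNA and levels of different genes can be set side by side. TPM keeps no sequencing depth, so the depth of each library is unknown. In bulk libraries, fewer cells expressing a gene and less RNA per cell cannot be told apart. Changes were tested with limma on log2(TPM + 1) over all 13753 genes with Benjamini-Hochberg adjustment; a gene is called, and said to rise or fall, when its adjusted p is under 0.05. Errors are SDs over 3 libraries for levels and standard errors for log2 fold changes. The scale of the table matters here, because the median log2 fold change of all tested genes was -0.23 at 24 h and 0.06 at 72 h against untreated cells, and 0.26 at 72 h against 24 h. Each result was therefore also computed after centring, in which the median of the tested genes was subtracted in every library, and the centred outcome is given beside each count and, against untreated cells, beside each named value whose call it changed. The comparisons at 24 h and at 72 h use the same untreated libraries.

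Promoter sequence came from RefSeq (GRCh38.p14), whose table held 25 of the 36 members (15 of the hydrolase group and 10 of the pump) as windows of 300 bases, 250 before and 50 after the start. The letters CACGTG, which read the same on both strands, occurred in 10 of the 25 (40.0%), against 8.79% of all 27195 promoters and 12.6% of the 10084 promoters of tested genes. They were present in 7 hydrolase group promoters (LAMP1, CTSA, CTSD, GAA, NEU1, MCOLN1 and CLN3) and in 3 pump promoters (ATP6V0B, ATP6V0D1 and ATP6V1G1). The longer form TCACGTGA, also the same on both strands and always containing CACGTG, occurred in 7 of the 25 (28.0%), against 1.18% of all promoters and 2.35% of those of tested genes. The stretches below show where the motif sits in 6 members with different RNA behaviour at the 2 times, with the motif in capitals. ATP6V0D1 (chr16:67481184-67481243, minus strand) has a single copy starting 59 bases before the gene start, and NEU1 (chr6:31862915-31862974, minus strand) a single copy at 126 bases. CTSD (chr11:1763942-1764001, minus strand) has a single copy at 47 bases. CTSA (chr20:45891266-45891334, plus strand) has a pair of copies at 42 and 25 bases, MCOLN1 (chr19:7522556-7522623, plus strand) a pair at 41 and 14 bases, and ATP6V0B (chr1:43974876-43974953, plus strand) a pair at 57 and 39 bases.
ATP6V0D1: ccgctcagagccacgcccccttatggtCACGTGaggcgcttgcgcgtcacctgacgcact
NEU1: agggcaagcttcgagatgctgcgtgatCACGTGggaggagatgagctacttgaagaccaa
CTSD: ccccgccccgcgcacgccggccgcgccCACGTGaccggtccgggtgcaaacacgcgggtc
CTSA: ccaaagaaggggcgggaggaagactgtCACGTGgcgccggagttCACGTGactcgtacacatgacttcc
MCOLN1: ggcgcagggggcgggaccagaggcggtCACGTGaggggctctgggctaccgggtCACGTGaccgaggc
ATP6V0B: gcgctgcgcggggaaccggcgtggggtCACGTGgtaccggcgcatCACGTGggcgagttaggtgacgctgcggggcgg

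LAMP1 (chr13:113297020-113297238, plus strand) is shown separately because its promoter held 6 copies in the window, 5 of them before the start at 192 to 28 bases, more than any other member in the promoter table. The first 4 lie in close succession, and its RNA was lower at both times, at 24 h not after centring.
LAMP1: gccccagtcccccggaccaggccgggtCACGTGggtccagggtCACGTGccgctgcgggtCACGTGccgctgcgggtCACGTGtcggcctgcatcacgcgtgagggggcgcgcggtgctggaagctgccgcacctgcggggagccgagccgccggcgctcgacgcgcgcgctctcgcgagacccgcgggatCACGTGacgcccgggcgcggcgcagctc

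Members with and without the motif in this window are described side by side, with no test. At 72 h against untreated cells, the 10 with CACGTG had a median log2 fold change of 0.43 (7 rose and 1 fell, also after centring), and the 15 without it 0.36 (9 rose and 3 fell, 8 and 4 after centring). At 24 h the medians were -0.06 and -0.05, with 4 rises and 5 falls among the members with the motif and 6 and 7 among those without (5 and 1, and 8 and 2, after centring). At 72 h against 24 h the median was 0.55 with the motif (8 rose and 0 fell, 6 and 2 after centring) and 0.41 without it (12 and 0, 6 and 4 after centring). IDS and CTSL, the largest rises of the whole set at 72 h, came from promoters without these letters in the window, which says nothing about other binding sites. A match is a stretch of letters and was not shown to be bound.

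The promoters of the 25 members in the promoter table carried an H3K4me3 peak in every library, and most of them an ATAC peak in every library. An H3K4me3 peak lay within 500 bases of the start of 25 of 25 members in all 6 libraries, against 44.0% of all promoters and 90.9% of those of tested genes. An ATAC peak lay there in all 9 libraries for 19 of 25 members, against 34.5% and 73.3%, so the ATAC share lay near that of tested genes. A member counted when any of its annotated starts had a peak, whereas the shares of all promoters and of tested genes used a single start per gene. The other 6 members, LAMP1, CTSA, CTSD, CTSZ, MCOLN1 and ATP6V0C, had a peak in 3 of 3 untreated libraries and lacked it only in THC libraries. LAMP1 was listed in 2 of 3 libraries at 24 h and 1 of 3 at 72 h, and CTSA, CTSZ and MCOLN1 in 3 of 3 and 1 of 3. CTSD was listed in 2 of 3 at both times, and ATP6V0C in 3 of 3 and 2 of 3. At 72 h the RNA of CTSD, CTSA and MCOLN1 rose, that of LAMP1 and CTSZ fell and that of ATP6V0C was not called, so fewer ATAC lists with a peak went with either direction of RNA. The deposited ATAC lists differed in length, from 65042 to 150884 peaks in untreated libraries, 57356 to 78290 at 24 h and 38495 to 80773 at 72 h, and the part of list length in these gaps was not tested. Only 3 of 25 members were listed in all 9 ATAC libraries once peaks needed a -log10 q of at least 5, and only 1 when the peak had to cover most of the window (0.5 or more of it); the H3K4me3 counts were then 25 and 24.

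In untreated cells the members spanned a wide range of levels. PSAP, the precursor of the saposins that help enzymes reach sphingolipids, was the most abundant at 419 ± 4.79 TPM, followed by the pump subunit ATP6V0E1 (219 ± 7.47), the cysteine protease CTSB (194 ± 2.22) and the aspartic protease CTSD (176 ± 3.75). CTSS, a cysteine protease best known from antigen-presenting cells, was the lowest at 2.13 ± 0.824 TPM, and MCOLN1, the lysosomal cation channel TRPML1, stood at 8.78 ± 0.123. Pump genes lay closer together, from 41.2 ± 2.52 TPM for ATP6V0A1 to the level of ATP6V0E1. Libraries of a group were tight, with a median coefficient of variation of 3.66% per member and group and a range of 0.146% to 19.8% outside CTSS, which reached 40.6%. By 72 h the order had changed: PSAP was followed by CTSD (339 ± 16 TPM), CTSL (327 ± 17.4) and ATP6V1F (323 ± 5.13), which do not differ beyond their spread. CTSL had moved from rank 12 to rank 3 of the 36, NEU1 from 31 to 16 and TPP1 from 28 to 14, while LAMP1 had moved from rank 10 to 18 and ATP6V1A from 16 to 31.

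After 24 h of THC the set moved in both directions. CTSL, IDS and the cofactor PSAP led the rises in the hydrolase group, and ATP6V1F and ATP6V0A1 those among pump genes. ATP6V0D1 fell furthest, and the cathepsins CTSS, CTSZ and CTSH fell with it. Of the 36 members, 13 rose (36.1%) and 16 fell (44.4%), against 25.0% and 51.7% of all tested genes, and after centring 20 rose and 5 fell. The 3 THC libraries lay wholly above the untreated ones for 13 members and wholly below for 16, against 25.8% and 52.8% of all tested genes (78.6% in either direction). With 76.7% of all tested genes called in some direction, the number of calls by itself is no result about these genes. In the hydrolase group 7 rose, 9 fell and 5 were not called, with a median log2 fold change of 0.00, and in the pump group 6 rose, 7 fell and 2 were not called, with a median of -0.09. After centring the counts were 12 and 3 for the hydrolase group and 8 and 2 for the pump. All 13 rises were also called after centring, but of the 16 falls CTSH, CTSS, CTSZ, ATP6V0D1 and ATP6V1C1 alone were.

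After 72 h the members were mostly higher than in untreated cells. IDS, CTSL, NEU1, TPP1 and MCOLN1 were more than doubled, the pump subunits ATP6V0A1 and ATP6V1F were nearly so, and ATP6V0D1 was back at its untreated level. In this comparison 21 members rose (58.3%) and 5 fell (13.9%), against 40.1% and 33.0% of all tested genes, and after centring 18 rose and 7 fell. The groups did not overlap for 23 members higher and 6 lower, against 41.6% and 35.0% of all tested genes (76.6% in either direction). The hydrolase group had 11 rises, 4 falls and a median log2 fold change of 0.27, and the pump group 10 rises, 1 fall and a median of 0.20 (11 and 6, and 7 and 1, after centring). The rises lost on centring were ATP6V0E1 (0.10), ATP6V1D (0.15) and ATP6V1H (0.20), and all 5 falls (LAMP1, CTSH, CTSZ, GLB1 and ATP6V1A) remained.

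**Figure D1:**
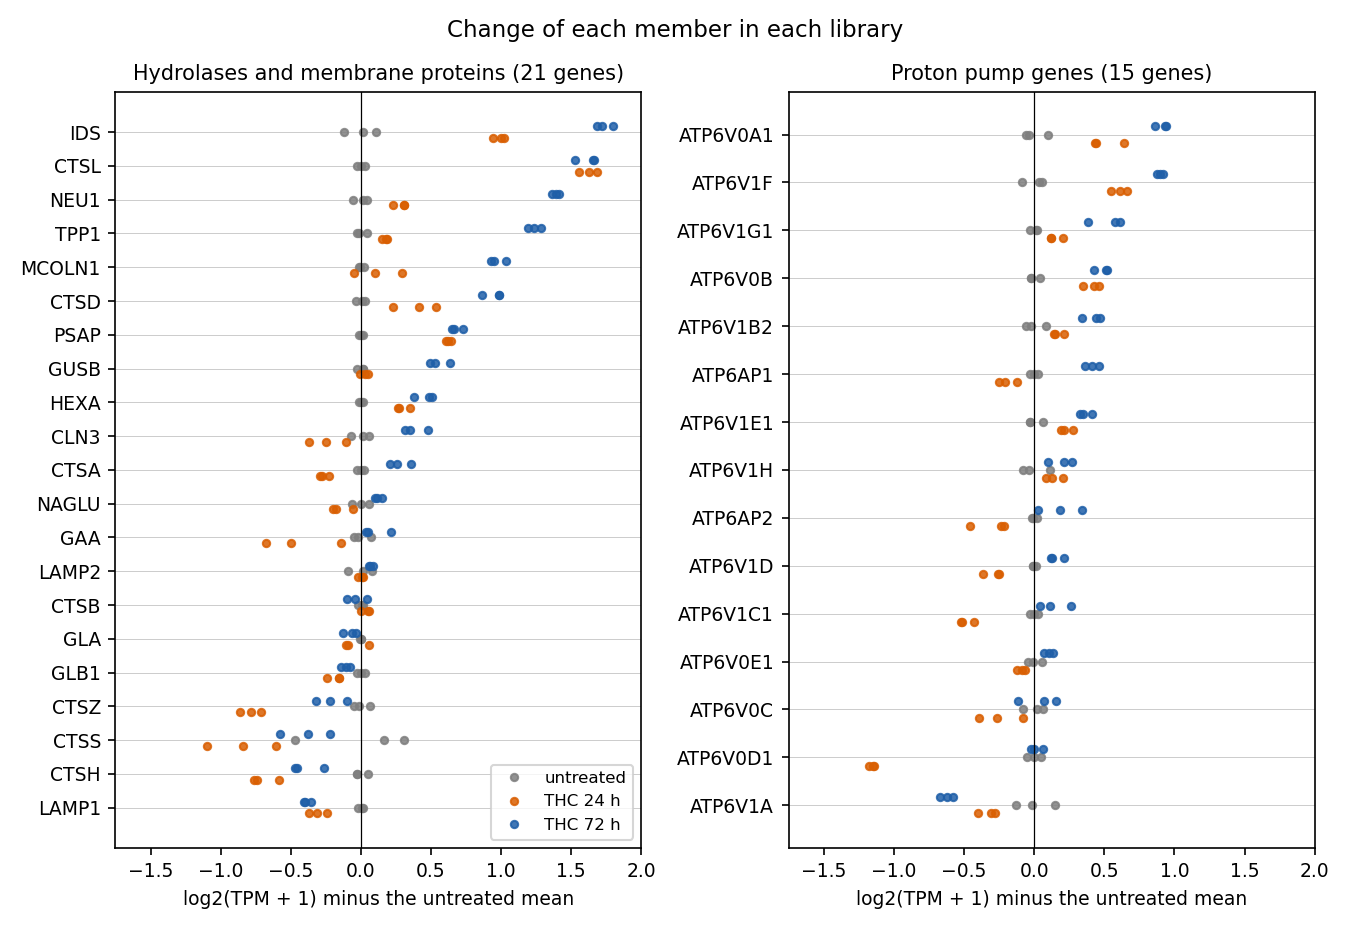
Each point is 1 library, placed by its log2(TPM + 1) minus the mean of the 3 untreated libraries, for 21 hydrolases, cofactors and membrane proteins (left) and 15 proton pump genes (right), ordered by the 72 h mean; grey is untreated, orange 24 h and blue 72 h of THC. IDS, CTSL, NEU1 and TPP1 lie furthest right at 72 h and ATP6V0D1 furthest left at 24 h, as deposited; 11 of the 16 falls at 24 h were not called after centring.

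Among the cathepsins, the main lysosomal proteases, CTSL changed most. CTSL, a cysteine endopeptidase, was at 108, 106 and 104 TPM in untreated libraries, 314, 342 and 329 at 24 h and 338, 336 and 307 at 72 h. Every THC library lay far above every untreated one, and the 2 times overlapped. Its log2 fold change was 1.62 (SE 0.05, adjusted p = 1.68e-09) at 24 h and 1.61 (SE 0.05, adjusted p = 1.65e-09) at 72 h, and the level was 3.09 and 3.08 times the untreated mean. CTSD, the aspartic protease, rose in steps, from 171, 179 and 177 TPM through 255, 206 and 234 to 348, 320 and 348. Its 3 groups did not overlap (log2 fold change 0.39, adjusted p = 0.000488, and 0.94, adjusted p = 8.65e-07). CTSA, a serine carboxypeptidase that also protects NEU1 and GLB1 in a complex, went from 146 ± 2.53 to 121 ± 2.39 and then 176 ± 9.27 TPM, a fall of 0.27 that was lost on centring (centred -0.05, adjusted p = 0.393) and a rise of 0.27 that was kept. CTSB, the most abundant cathepsin in untreated cells, was called at neither time as deposited (194, 199 and 190 TPM in turn), and centring turned these values into 0.25 at 24 h and -0.12 at 72 h, both called.

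The other cathepsins were lower. CTSZ, a carboxypeptidase, was at 67.1, 63.6 and 61.9 TPM untreated, 36.8, 38.7 and 34.9 at 24 h and 59.7, 54.9 and 51.1 at 72 h. The 24 h libraries lay apart from both other groups, and the 72 h libraries stayed below all untreated ones (log2 fold change -0.79, adjusted p = 1.5e-06, and -0.21, adjusted p = 0.0119). CTSH, an aminopeptidase, was at 72.1, 76.3 and 72.1 TPM untreated, 43.5, 43.0 and 48.8 at 24 h and 61.2, 52.9 and 53.3 at 72 h. All its groups were separate, and both times were called (-0.69, adjusted p = 6.18e-06, and -0.39, adjusted p = 0.000438). CTSS, near the lower limit of testing, was at 2.41, 2.78 and 1.20 TPM untreated, 0.426, 1.00 and 0.706 at 24 h and 1.35, 1.62 and 1.04 at 72 h. The 24 h libraries lay below the untreated ones and the 72 h libraries overlapped them (-0.85, adjusted p = 0.00339, and -0.39, adjusted p = 0.108). The 72 h value of CTSS was -0.63 without untreated replicate 3, where it was called (adjusted p = 0.00798), and -0.24 without untreated replicate 2. With a pseudocount of 0.1 in place of 1 the CTSS value at 24 h was -1.44, so its size depends on the scale more than that of any abundant member. The 7 cathepsins thus gave 2 rises and 4 falls at 24 h and 3 and 2 at 72 h, and 3 and 3 at both times after centring.

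Among the other enzymes and cofactors, IDS, the sulfatase that starts the breakdown of heparan and dermatan sulfate, rose most. It was at 17.2, 19.0 and 20.4 TPM untreated, 38.6, 37.0 and 39.3 at 24 h and 62.8, 64.1 and 68.0 at 72 h. The 3 groups were far apart, the later one highest (log2 fold change 0.99, SE 0.06, adjusted p = 2.58e-07, and 1.73, SE 0.06, adjusted p = 5.66e-09). IDS has a pseudogene copy, IDSP1, whose level did not exceed 0.307% of that of IDS in any library. PSAP, the saposin precursor, was at 419, 414 and 424 TPM untreated, 646, 654 and 640 at 24 h and 658, 665 and 693 at 72 h. Both THC groups lay above the untreated one and next to each other (0.63, SE 0.03, adjusted p = 9.17e-08, and 0.68, SE 0.03, adjusted p = 5.61e-08). At 72 h against 24 h PSAP was not called as deposited (0.05) and was called lower after centring (-0.25, adjusted p = 0.00041).

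NEU1 and TPP1 showed the opposite timing, with small rises at 24 h and large ones at 72 h. NEU1, the sialidase that removes terminal sialic acids, was at 36.4, 37.0 and 34.5 TPM untreated, 44.8, 44.8 and 42.3 at 24 h and 95.7, 94.2 and 97.4 at 72 h. No groups overlapped (0.28, SE 0.04, adjusted p = 0.000205, and 1.39, SE 0.04, adjusted p = 2.46e-09). TPP1, a tripeptidyl peptidase, was at 42.9, 43.2 and 45.1 TPM untreated, 49.8, 49.7 and 48.7 at 24 h and 101, 104 and 108 at 72 h. Its 72 h libraries were 2.39 times the untreated mean (0.17, SE 0.04, adjusted p = 0.0038, and 1.24, SE 0.04, adjusted p = 3.53e-09). HEXA, the alpha subunit of beta-hexosaminidase, which degrades gangliosides, rose at both times, from 56.1 ± 0.656 to 69.0 ± 2.42 and 77.3 ± 3.59 TPM (0.29 and 0.46).

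The remaining sugar-cleaving enzymes differed in direction and timing. GUSB, a beta-glucuronidase, went from 70.5 ± 1.27 TPM to 71.6 ± 1.45 at 24 h, which was not called (centred 0.24, called), and to 104 ± 5.61 at 72 h (0.55, adjusted p = 2.03e-06). GUSB is uncertain, because the table also lists 19 of its pseudogene copies, whose summed level reached 85.4% of that of GUSB in a library. GAA, the acid alpha-glucosidase of glycogen, was at 55.1 ± 2.42, 40.9 ± 8.09 and 59.2 ± 4.19 TPM, with a fall at 24 h (-0.44, adjusted p = 0.00531) that was lost on centring (adjusted p = 0.111). GLB1, a beta-galactosidase, was at 124 ± 2.33, 110 ± 3.96 and 116 ± 2.15 TPM, and its falls were small (-0.18 and -0.11); centring turned the first into 0.04 (adjusted p = 0.399) and left the second called at -0.19. The 72 h call of GLB1 was lost without untreated replicate 1 or 2 or 72 h replicate 1 or 2 (adjusted p = 0.0651 to 0.107). NAGLU, which acts on heparan sulfate, fell by 0.14 at 24 h, a call lost on centring (0.07, adjusted p = 0.219) and without untreated replicate 1 or 2 or 24 h replicate 2 or 3 (adjusted p = 0.0764 to 0.123), and was not called at 72 h. GLA, an alpha-galactosidase, was called at neither time as deposited (41.4, 40.1 and 39.3 TPM in turn), and after centring was 0.17 at 24 h and -0.16 at 72 h, both called.

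The 4 membrane proteins differed from each other. LAMP1, an abundant glycoprotein of the lysosomal membrane, was at 116, 115 and 113 TPM untreated, 97.0, 88.6 and 92.2 at 24 h and 89.5, 86.7 and 86.4 at 72 h. THC libraries lay below untreated ones at both times (-0.31, adjusted p = 8.42e-05, and -0.39, adjusted p = 1.69e-05), but the 24 h fall was lost on centring (-0.09, adjusted p = 0.0946). Its relative LAMP2 did not pass the test at either time (77.7 ± 4.57, 77.7 ± 0.987 and 81.6 ± 0.825 TPM), with a centred value of 0.22 that was called at 24 h. MCOLN1, the calcium-releasing channel, was at 8.68, 8.74 and 8.92 TPM untreated, 11, 8.44 and 9.51 at 24 h and 17.6, 19.0 and 17.9 at 72 h. The 24 h libraries straddled the untreated ones and were not called (0.12, adjusted p = 0.223; centred 0.33, called). This 24 h value was 0.03 without 24 h replicate 1 and 0.20, called (adjusted p = 0.0337), without 24 h replicate 2, while the 72 h libraries were about double (0.97, adjusted p = 2.51e-06). CLN3, a membrane protein mutated in juvenile Batten disease, went from 29.4 ± 1.29 to 24.7 ± 2.30 and 38.6 ± 2.43 TPM. Its 24 h fall of 0.24 was lost on centring (-0.02, adjusted p = 0.781), and its 72 h rise of 0.38 was kept.

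**Figure D2:**
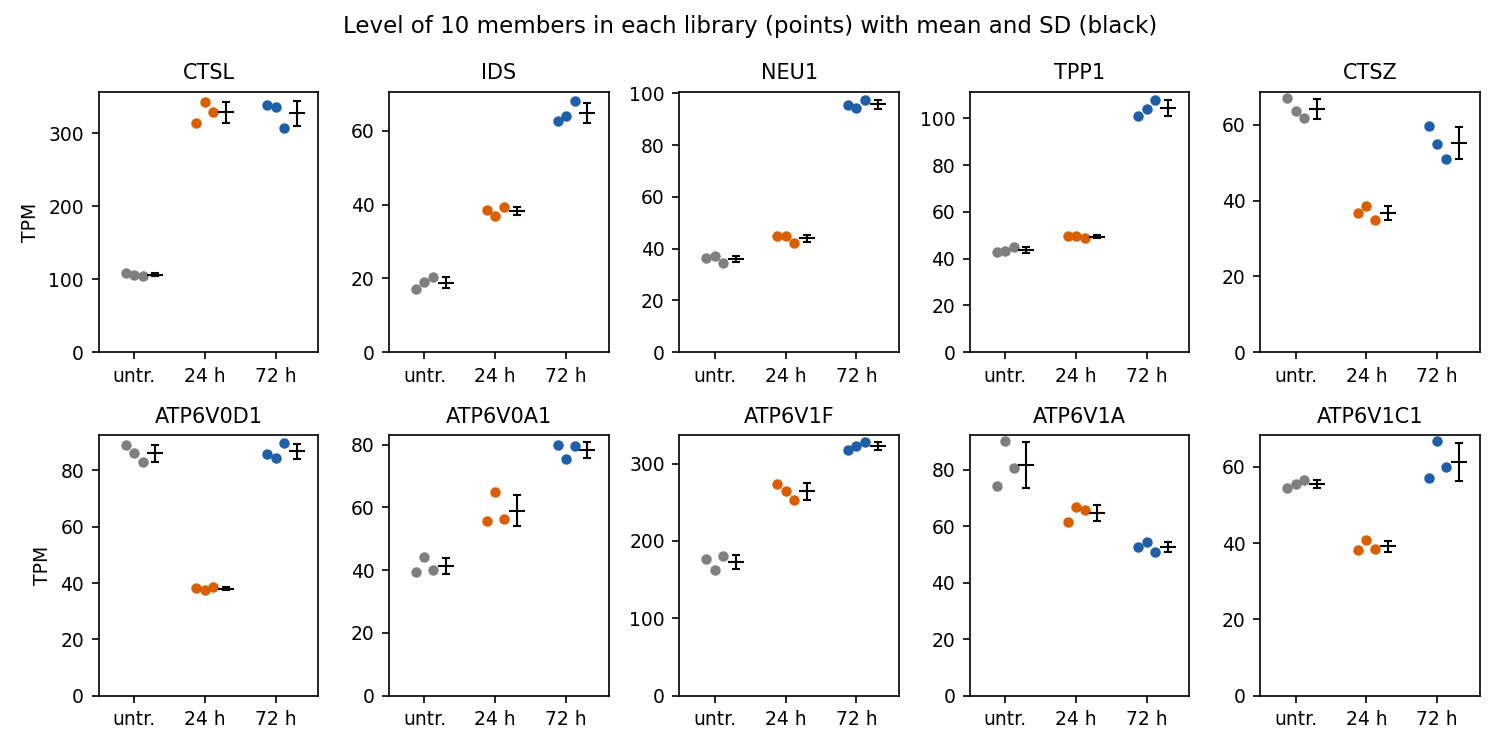
TPM of 10 members in each library (coloured points; untreated, 24 h and 72 h of THC) with the mean and SD of 3 libraries in black, each panel starting at 0. CTSL was as high at 24 h as at 72 h, NEU1 and TPP1 rose mainly between the 2 times, ATP6V0D1 fell at 24 h to 37.4 to 38.5 TPM and returned, and ATP6V1A stepped down; the 24 h fall of ATP6V1A was lost on centring.

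In the membrane sector of the pump, V0, the subunits went separate ways at 24 h. ATP6V0D1, the d subunit that joins the proteolipid ring to the rotor, was at 89.1, 86.2 and 83.1 TPM untreated, 38.2, 37.4 and 38.5 at 24 h and 86.0, 84.6 and 89.8 at 72 h. The 24 h libraries were at 0.44 of the untreated mean and far from all others, and the 72 h libraries overlapped the untreated ones. Its log2 fold change was -1.16 at 24 h (SE 0.04, adjusted p = 6.45e-09; centred -0.94) and 0.01 at 72 h (SE 0.04, adjusted p = 0.823). ATP6V0A1, a subunit a isoform that lines the proton path, was at 39.5, 44.1 and 40.0 TPM untreated, 55.8, 64.8 and 56.3 at 24 h and 79.9, 75.5 and 79.6 at 72 h. Its 3 groups did not overlap (0.50, SE 0.07, adjusted p = 5.39e-05, and 0.91, SE 0.07, adjusted p = 7.36e-07). ATP6V0B, a ring subunit, was at 109, 109 and 114 TPM untreated, 153, 141 and 149 at 24 h and 159, 149 and 158 at 72 h. It was above untreated cells at both times, and the times overlapped (0.41, adjusted p = 1.32e-05, and 0.48, adjusted p = 4.42e-06).

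For the last V0 members, each call as deposited was lost on centring. ATP6V0C, the main ring proteolipid, was at 142 ± 7.14, 120 ± 13.1 and 146 ± 13.9 TPM. Its fall of 0.25 at 24 h was lost on centring (-0.03, adjusted p = 0.762) and without untreated replicate 1 or 2 or 24 h replicate 2 or 3 (adjusted p = 0.0636 to 0.0933). ATP6V0E1, a small membrane subunit, was at 219 ± 7.47, 205 ± 3.91 and 235 ± 5.37 TPM. Only its 72 h rise of 0.10 was called as deposited (adjusted p = 0.0385), and that call was lost on centring (0.01, adjusted p = 0.77) and without untreated replicate 1 or 2, 24 h replicate 3 or 72 h replicate 1 or 3 (adjusted p = 0.0601 to 0.138). At 24 h its centred value was 0.13, on the other side of the deposited -0.09 and called; without untreated replicate 1 the deposited value was -0.11 and called (adjusted p = 0.0456).

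In the cytosolic sector, V1, ATP6V1F rose most and ATP6V1A fell. ATP6V1F, a subunit of the central stalk, was at 177, 163 and 180 TPM untreated, 274, 265 and 253 at 24 h and 318, 323 and 328 at 72 h. The 3 groups were separate, in that order (0.60, SE 0.05, adjusted p = 1.33e-06, and 0.89, SE 0.05, adjusted p = 8.67e-08). ATP6V1A, the catalytic subunit that binds ATP, was at 74.3, 90.2 and 80.7 TPM untreated, 61.6, 66.8 and 65.6 at 24 h and 52.7, 54.3 and 50.9 at 72 h. Each later group lay wholly below the earlier ones (-0.33, adjusted p = 0.0012, and -0.62, adjusted p = 1.44e-05), and the 24 h call was lost on centring (-0.11, adjusted p = 0.1). ATP6V1B2, the non-catalytic partner of ATP6V1A in the nucleotide-binding ring, went the other way, from 48.9 ± 2.68 to 55.0 ± 1.48 and 65.7 ± 3.16 TPM (0.17 and 0.42). The small 24 h rise of ATP6V1B2 was lost without untreated replicate 1 or 3 or 24 h replicate 3 (adjusted p = 0.0534 to 0.0693).

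The stalk and regulatory subunits of V1 differed in direction and timing. ATP6V1G1, of the peripheral stalk, was at 91.9, 89.0 and 91.5 TPM untreated, 98.6, 105 and 98.6 at 24 h and 119, 139 and 136 at 72 h. The groups did not overlap (0.15, adjusted p = 0.0391, and 0.52, adjusted p = 1.81e-05), but the 24 h call was lost when any untreated library or 24 h replicate 2 or 3 was left out (adjusted p = 0.0569 to 0.127). ATP6V1E1, of the same stalk, rose from 127 ± 4.44 to 150 ± 4.85 and 164 ± 5.28 TPM (0.23 and 0.36). ATP6V1C1, which clamps the stalks to V0, was at 54.4, 55.5 and 56.5 TPM untreated, 38.3, 40.9 and 38.5 at 24 h and 57.1, 66.8 and 60.1 at 72 h. Its 24 h libraries lay well below both other groups (-0.49, SE 0.06, adjusted p = 2.72e-05), and its 72 h value of 0.14 missed the threshold (adjusted p = 0.0549) and was 0.08 without 72 h replicate 2 and 0.19, called (adjusted p = 0.0176), without 72 h replicate 1. ATP6V1D, of the rotor, was at 79.1 ± 0.792, 64.5 ± 2.85 and 88.0 ± 3.17 TPM (-0.29 and 0.15, both called as deposited and neither after centring, adjusted p = 0.159 and 0.213). ATP6V1H, a regulatory subunit, was at 47.5 ± 3.47, 52.2 ± 2.26 and 54.5 ± 3.33 TPM. Its only call as deposited, 0.20 at 72 h, was lost on centring (0.11, adjusted p = 0.11) and without untreated replicate 1 or 3 or 72 h replicate 1 or 2 (adjusted p = 0.0554 to 0.0796), while at 24 h its centred value of 0.35 was called.

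Both accessory proteins fell at 24 h as deposited, and neither fall was called after centring. ATP6AP1, needed for V0 assembly, went from 85.4 ± 1.70 to 74.5 ± 3.40 and 114 ± 4.16 TPM (-0.19, adjusted p = 0.00315, and 0.41, adjusted p = 1.89e-05), with a centred 24 h value of 0.02 (adjusted p = 0.692). ATP6AP2, also known as the prorenin receptor, went from 71.5 ± 0.853 to 57.9 ± 5.30 and 81.6 ± 8.89 TPM. Its 24 h fall of 0.30 was lost on centring (-0.09, adjusted p = 0.373), and its 72 h value of 0.18 was not called (adjusted p = 0.0691) and was 0.11 without 72 h replicate 1 and 0.26, called (adjusted p = 0.0153), without 72 h replicate 2.

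**Figure D3:**
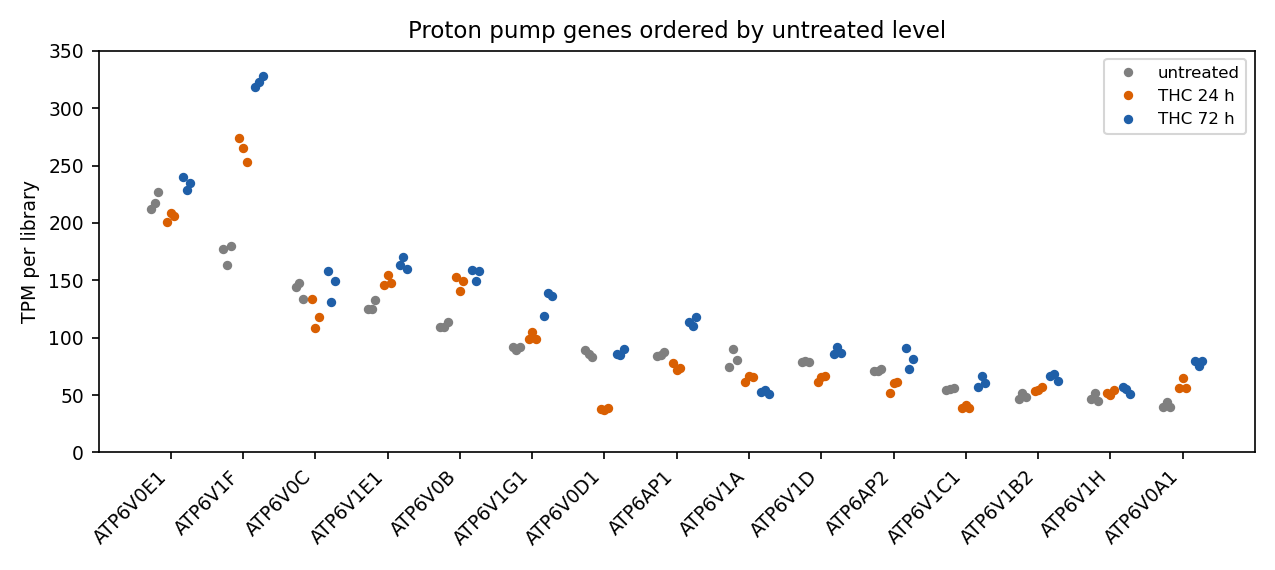
TPM of the 15 proton pump genes in each library, ordered by the untreated mean; grey is untreated, orange 24 h and blue 72 h of THC. ATP6V1F moved from 163 to 180 TPM untreated to 318 to 328 at 72 h, ATP6V0D1 dipped at 24 h alone, and ATP6V1A is the only pump gene called lower at 72 h, as deposited and after centring.

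Between 24 h and 72 h most members went up, and so did most genes. Of the 36 members, 25 rose (69.4%) and 1 fell, against 54.9% and 17.8% of all tested genes, with a median log2 difference of 0.33 beside 0.26 over all tested genes. In either direction 72.6% of all tested genes were called. The groups did not overlap for 28 members higher and 1 lower, against 55.4% and 18.5% of all tested genes (73.9% in either direction). After centring 13 rose and 13 fell, so the direction of the set as a whole depended on the scale of the table. The hydrolase group had 13 rises and 0 falls (9 and 8 after centring), and the pump group 12 rises and 1 fall (4 and 5 after centring). The 0 falls of the hydrolase group came from limma's adjusted p; 0 were lower at an unadjusted p under 0.05 as well, and 1 (LAMP1, -0.12, adjusted p = 0.0321) was called when libraries were rescaled without mitochondrial and ferritin genes. The largest rises between the times were ATP6V0D1 (1.17, SE 0.04, adjusted p = 2.71e-08), NEU1 (1.11, adjusted p = 4.6e-08), TPP1 (1.07, adjusted p = 4.36e-08), MCOLN1 (0.85, adjusted p = 8.57e-06) and IDS (0.75, adjusted p = 3.23e-06), and all of these were called after centring as well. HEXA, ATP6V0E1 and ATP6V1E1 were called higher as deposited and lower after centring. The calls of ATP6V0C (without 24 h replicate 2 or 72 h replicate 1, adjusted p = 0.0514 and 0.052) and ATP6V1E1 (without 24 h replicate 1 or 3 or 72 h replicate 2, adjusted p = 0.0599 to 0.0706) rested on single libraries, and ATP6V0C was not called after centring (-0.02, adjusted p = 0.858). For CTSL the difference was -0.00 (SE 0.05, adjusted p = 0.936) as deposited, and -0.31 (adjusted p = 0.000295), called lower, after centring.

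**Figure D4:**
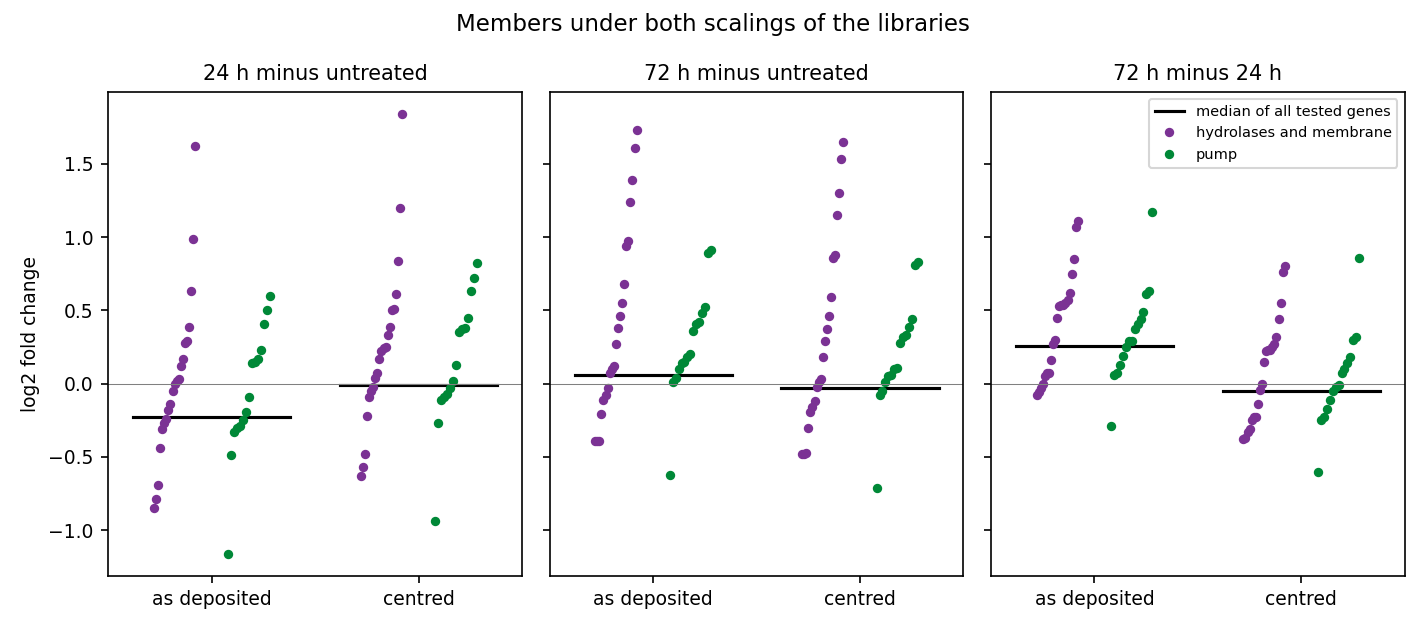
Log2 fold change of each member (purple for 21 hydrolases, cofactors and membrane proteins, green for 15 pump genes) in the 3 comparisons, from TPM as deposited and after each library was centred; black bars mark the median of all 13753 tested genes. At 72 h against 24 h, 25 members were called higher and 1 lower as deposited, and 13 higher and 13 lower after centring.

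As summed levels, the hydrolase group gained more than the pump. Its ratio to untreated cells was lower without PSAP, CTSL and CTSD, abundant genes picked after their rises were seen, so a lower ratio was bound to follow. The 21 hydrolase group genes summed to 1878, 1895 and 1889 TPM in untreated libraries, 2328, 2287 and 2296 at 24 h and 2762, 2688 and 2758 at 72 h, which is 1.22 and 1.45 times the untreated mean. The 15 pump genes summed to 1443, 1467 and 1470 TPM untreated, 1497, 1496 and 1483 at 24 h and 1847, 1820 and 1845 at 72 h, or 1.02 and 1.26 times. The ratio of the hydrolase sum to the pump sum, which does not depend on the scale of a library, was 1.29 ± 0.01 untreated, 1.54 ± 0.01 at 24 h and 1.49 ± 0.01 at 72 h. In each THC library it was higher than in any untreated library. No test was made of a sum over chosen genes. The sums weigh genes by abundance, and the sums that follow leave out genes picked after their values were seen. Without PSAP and CTSL the other 19 genes summed to 1362, 1329 and 1737 TPM on average, or 0.98 and 1.28 times the untreated mean. Without CTSD as well, the other 18 summed to 1187, 1097 and 1398 TPM, or 0.92 and 1.18 times. The abundant risers of the pump were not left out in the same way. These values therefore cannot be set against the 1.02 and 1.26 times of the pump. Without CTSD alone the sum was 1712, 2072 and 2397 TPM, and the share of CTSD in the group went from 9.30% to 10.0% and 12.4%. By sector, V0 genes summed to 599, 570 and 701 TPM on average and V1 genes to 704, 790 and 941. At 24 h the V0 sum was thus 0.95 and the V1 sum 1.12 times the untreated level. At that time ATP6V1F alone gained more TPM than the whole V1 sum, and ATP6V0D1 alone lost more than the V0 sum. The gap between the sector sums therefore rests on these genes, which were picked after their values were seen. Whether either sector shifted as a whole was not tested. The median log2 fold change at 24 h was 0.15 for V1 and -0.09 for V0 (centred 0.36 and 0.13). At 24 h 2 V0 genes rose and 2 fell (3 and 1 after centring), and 4 V1 genes rose and 3 fell (5 and 1). The median gene of the hydrolase group and of the pump gives a smaller contrast than their sums. At 24 h the median log2 fold change was 0.00 for the hydrolase group and -0.09 for the pump. At 72 h it was 0.27 and 0.20.

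**Figure D5:**
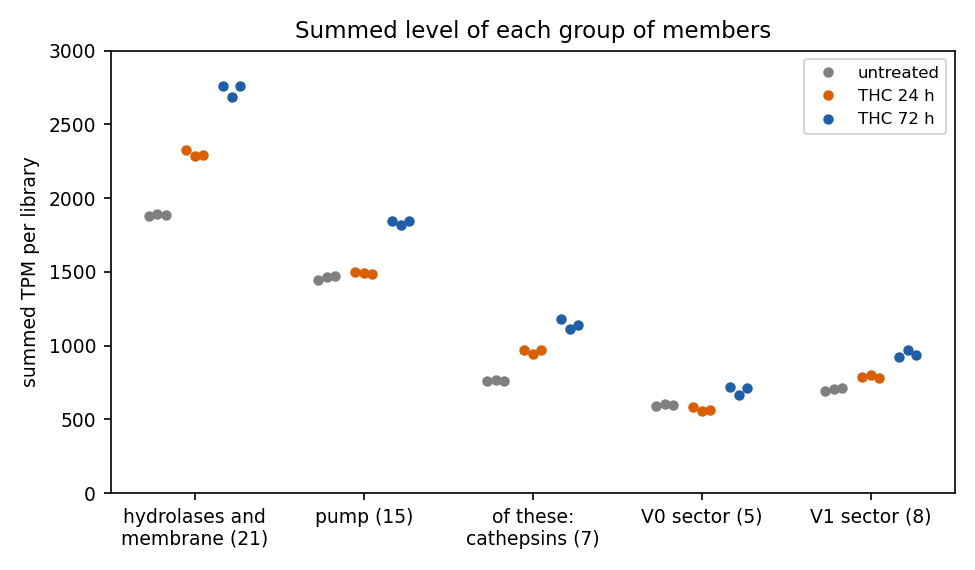
Summed TPM in each library for the 21 hydrolase group genes, the 15 pump genes, the 7 cathepsins among the former, and the 5 V0 and 8 V1 genes among the latter; the axis starts at 0. The hydrolase group sum steps from about 1887 to 2304 and 2736 TPM, and the pump sum from 1460 to 1492 and 1837. Without PSAP, CTSL and CTSD, picked after their rises were seen, the hydrolase group sum was 1187, 1097 and 1398 TPM. No pump genes were left out in the same way.

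Other genes of the same pathways were counted from lists and not compared with the members by a test. Of 7 tested V-ATPase subunits outside the set, 2 rose and 4 fell at 24 h (the same after centring), and 4 rose and 1 fell at 72 h (2 and 1 after centring). ATP6V0A2, another a isoform, rose (0.49 and 0.59), and ATP6V0A4, the a isoform of kidney and other acid-secreting epithelia, fell from 5.25 to 1.88 and 1.44 TPM (-1.13 and -1.36). ATP6V0E2, an isoform of ATP6V0E1, fell from 31.8 to 15.6 TPM at 24 h and was at 31.3 TPM at 72 h (-0.99 and -0.02), and ATP6V1B1 did likewise (-0.99 and 0.04). ATP6V0D2, the isoform of ATP6V0D1 known from osteoclasts and kidney, was listed at 0 in all 3 untreated libraries. It was at 1.03, 1.81 and 1.65 TPM at 24 h and at 1.65, 2.03 and 2.00 at 72 h. ATP6V0D2 reached the mean of 1 TPM needed for testing only through the THC libraries. Its place among the rises counted at both times was thus set by the filter. A list of 12 pump-associated genes held assembly factors, subunits of the RAVE complex, which joins V1 to V0, and others such as NCOA7 and TLDC2. Of these 12, 2 rose and 8 fell at 24 h (3 and 3 after centring). At 72 h 4 rose and 3 fell (4 and 5 after centring). DMXL1, a RAVE subunit, rose (0.98 and 0.48), NCOA7 rose at 72 h (0.72), and ROGDI, another RAVE subunit, fell (-0.93 and -1.13).

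Of 31 other soluble enzymes and cofactors tested, 10 rose and 15 fell at 24 h (13 and 11 after centring), and 15 rose and 11 fell at 72 h (13 and 13). DNASE2, the lysosomal DNase, rose (0.97 and 1.09), as did SGSH, the heparan sulfamidase (0.93 and 0.98), IDUA, which follows IDS in heparan sulfate breakdown (0.80 and 1.89), and ACP5, an acid phosphatase (0.57 and 1.79). LIPA, the acid lipase that frees cholesterol and fatty acids, fell (-1.55 and -0.88), as did ARSB (-0.93 and -0.78). CTSC, an aminopeptidase that activates other proteases, fell further at 72 h (-0.48 and -1.39), and CTSV, the closest relative of CTSL, fell at both times (-0.88 and -1.06) while CTSL rose. Of 23 other membrane proteins, 9 rose and 10 fell at 24 h (12 and 6 after centring), and 15 rose and 1 fell at 72 h (14 and 2). CD68, a glycoprotein of lysosomes, was at 0.298, 0.258 and 0.190 TPM untreated, 127, 137 and 133 at 24 h and 29.1, 30.0 and 39.4 at 72 h. CD68, too, reached the mean of 1 TPM needed for testing only through the THC libraries, and is among the rises counted. LAMP3, the inducible LAMP, rose (0.88 and 2.63), and LAPTM4B fell (-1.15 and -1.76). OSTM1, the beta subunit of the lysosomal chloride-proton exchanger, was among those lower at 24 h (-0.56) and was not called at 72 h (0.07).

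Genes that deliver and regulate lysosomal proteins are given next. Of 11 genes of mannose 6-phosphate tagging and sorting, 2 rose and 6 fell at 24 h (4 and 4 after centring), and 5 rose and 4 fell at 72 h (4 and 5). Both mannose 6-phosphate receptors rose at both times, IGF2R by more (0.88 and 1.19) than M6PR (0.20 and 0.20), whereas the alternative sorting receptors SORT1 (-2.07 and -0.76) and SORL1 (-0.90 and -1.46) fell. Of 23 genes of lysosomal mTORC1 control and the MiT/TFE family, 8 rose and 9 fell at 24 h (11 and 5 after centring), and 10 rose and 8 fell at 72 h (10 and 9). TFE3 went from 35.4 to 63.7 and 51.7 TPM (0.83, adjusted p = 8.67e-08, and 0.53, adjusted p = 2.48e-06). TFEB was near 2 TPM and not called at either time as deposited (0.05 and -0.26; centred 0.27 and -0.34, both called), and MITF fell (-0.16, lost on centring, and -0.56). SESN2, a stress-induced inhibitor of mTORC1, rose (2.63 and 2.52), as did FLCN, which controls TFE3 and TFEB through the Rag proteins (1.02 and 0.75), and TSC2, a brake on mTORC1 (0.42 and 1.04). DEPTOR, an mTOR-binding inhibitor, fell (-2.36 and -1.69), and LAMTOR4, a part of the Ragulator scaffold, fell (-0.94 and -0.76). These are RNA levels only, and nothing here measured the location or activity of these factors.

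Of 5 tested genes listed as cathepsin inhibitors, 1 rose and 2 fell at 24 h (2 and 1 after centring), and 2 rose and 2 fell at 72 h (1 and 3). The list was not restricted to inhibitors of the member cathepsins. SERPINB1 rose (1.83 and 1.15), SERPINB6 fell (-0.93 and -0.28), and CST6, a secreted cystatin that inhibits CTSL and CTSV, was not called at 24 h as deposited (25.4 and 29.4 TPM; centred 0.41, adjusted p = 0.0239, called) and fell to 1.53 TPM at 72 h (-3.40). Of 10 tested genes of the response to lysosomal damage, 7 rose and 2 fell at 24 h (8 and 1 after centring), and 4 rose and 2 fell at 72 h (4 and 2). LGALS3, a galectin that marks ruptured lysosomes, rose at both times (0.96 and 1.24), and LGALS8 rose by 0.94 at 72 h. YOD1, a deubiquitinase that acts with VCP, rose at 24 h (1.06) and was not called at 72 h (0.14), and VCP itself fell (-0.38 and -0.43). None of these lists was tested as a list, and their shares of calls stand beside the 76.7% at 24 h and 73.1% at 72 h of all tested genes called in some direction.

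Markers of other cells were checked because CTSS and CD68 are also known from macrophages. All 8 epithelial markers were expressed, with sums of 2328 to 2445 TPM untreated, 3568 to 3828 at 24 h and 2924 to 3064 at 72 h. None of 10 macrophage and other leukocyte markers reached the mean of 1 TPM needed for testing. They summed to 0.289 to 0.422, 1.16 to 1.43 and 1.44 to 2.07 TPM in turn, with AIF1 and TYROBP at 0 in all 9 libraries. Of 8 stromal markers 2 were tested, and the 8 summed to 8.83 to 11, 3.74 to 4.69 and 3.55 to 4.28 TPM. The part of these shifts in the results was not tested.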

How the data were processed

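RNA was measured in 9 libraries of HEC-1A cells, ATAC-seq in 9 and H3K4me3 CUT&RUN in 6; of 25 samples, a CUT&RUN control with IgG was not analysed here. Per the labels' protocols, RNA was purified on columns and sequenced with a stranded total RNA kit. The submitters' processing notes list GRCh38 as build and, with no roles, MACS2 2.2.7.1, MACS3, Picard, SAMtools, Bowtie2, FastQC, Trim Galore and Salmon. Strand use in counting, read shifting and duplicate removal: not given in the sources used here.

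Expression is in TPM computed by the authors and used as deposited, so depth is unknown and no count test was run. Because TPM is a share, abundant genes that rise lower all others. In the peak lists, called per library, the fold enrichment (ratio), −log10 p, −log10 q and score columns are those the authors deposited; only positions and −log10 q were used.

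Ensembl identifiers were matched to symbols by a table (59918 of 60179), and 36 of 36 members matched. The model was limma 3.58.1 in R 4.3.3 on log2(TPM + 1), 3 groups of 3 libraries, eBayes with trend, for the 13753 genes whose mean TPM was 1 or more, Benjamini-Hochberg adjusted p under 0.05; it was tested on simulated data. Tables were made in Python 3.11.15 with pandas 2.3.3, numpy 2.4.6 and matplotlib 3.10.9. Alternatives were pseudocounts of 0.1 and 0.5, no filter, a mean TPM of at least 5, centred libraries, TPM rescaled without mitochondrially encoded and ferritin genes, eBayes without trend, a replicate block and leaving out each library. Peaks were counted by any overlap with 500 bases either side of the RefSeq start, on chromosomes 1 to 22 and X.

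The members and pathway lists were chosen with earlier results of these data known. Values in every library are given for the 3 largest called rises and falls of each group at 24 h and 72 h; up to 2 rises and 2 falls per pathway list in each of these comparisons (ATP6V0E2 and ATP6V1B1 tie at 24 h), and TFEB, TFE3 and MITF, are named. Sums without PSAP, CTSL and CTSD were added after values were seen. Per-library values of CTSD, TPP1, MCOLN1, CD68 and ATP6V0D2 were chosen after their values were seen. Genes with near-identical copies and overlapping or antisense genes are uncertain: 7 members have pseudogenes in the table, with summed levels of up to 1.28% of the member except GUSB. The promoter table held no entry for ATP6V1C1, ATP6V1H, LAMP2, ATP6V1B2, HEXA, ATP6V1A, ATP6V0E1, CTSB, CTSS, PSAP and NAGLU.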

Additional observations from a re-analysis of the deposited data

Results flagged for a closer look

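For 14 members the change against the shared untreated libraries differed between the 2 THC times. Limma's test of the 72 h minus 24 h difference was called for them as deposited and in the same direction after centring. Time in culture and THC exposure cannot be told apart in this difference. The log2 differences were 1.17 for ATP6V0D1, 1.11 for NEU1, 1.07 for TPP1, 0.85 for MCOLN1, 0.75 for IDS, 0.63 for ATP6V1C1, 0.62 for CLN3, 0.61 for ATP6AP1, 0.57 for CTSZ, 0.55 for CTSD, 0.54 for CTSA, 0.53 for GUSB, 0.44 for ATP6V1D and -0.29 for ATP6V1A. ATP6V1A was thus the sole member of these that went further down. Another 12 members were called as deposited but not in the same direction after centring. Of these, HEXA, ATP6V0E1 and ATP6V1E1 were called in the opposite direction, and 9 were not called. The untreated libraries enter both changes and cancel in the difference, and groups of 3 are too small for a check on outlying libraries.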

How the results depend on the processing

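The choice with the largest effect was centring each library. Of all tested genes it called 4954 higher and 5128 lower at 24 h (49.1% of calls higher, 32.6% as deposited), 4790 and 5347 at 72 h (47.3% and 54.8%), and 4176 and 5217 at 72 h against 24 h (44.5% and 75.5%). In the hydrolase group it gave 12 rises and 3 falls at 24 h and 8 falls at 72 h against 24 h. Among pump genes it gave 2 falls at 24 h and 4 rises and 5 falls at 72 h against 24 h. Rescaling without mitochondrial and ferritin genes gave 1 fall in the hydrolase group, LAMP1, at 72 h against 24 h. Centring turned the sign of values called in at least 1 fit. At 24 h these were GLA (0.17), GLB1 (0.04), NAGLU (0.07), ATP6V0E1 (0.13) and ATP6AP1 (0.02). At 72 h against 24 h these were LAMP2 (-0.23), CTSH (-0.004), GLB1 (-0.23), HEXA (-0.14), PSAP (-0.25), NAGLU (-0.04), ATP6V0B (-0.23), ATP6V0C (-0.02), ATP6V0E1 (-0.11), ATP6V1B2 (-0.05), ATP6V1E1 (-0.17), ATP6V1F (-0.01) and ATP6V1H (-0.25). The centring itself shifts every value by the same amount; which scale is nearer to RNA per cell was not tested.

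Replicate numbers did not pair the libraries (correlations of same-numbered deviations -0.199 to 0.252). With the replicate block the all-gene counts were 3447 and 7130, 5519 and 4558, and 7566 and 2466 (as deposited 3433 and 7111, 5514 and 4542, 7546 and 2445). The block ended 2 member calls at 72 h, ATP6V0E1 (adjusted p = 0.0527) and GLB1 (0.0516), and made 2, ATP6V1C1 at 72 h (0.0343) and CTSS at 72 h against 24 h (0.0337). Calls were also lost without a filter (at 24 h ATP6V0C, 0.0729, and ATP6V1G1, 0.0811), without trend (ATP6V1G1 at 24 h, 0.0617; GLB1, 0.0669, and ATP6V0E1, 0.0794, at 72 h) and on rescaling (ATP6V0E1 at 72 h, 0.17; ATP6V1E1 at 72 h against 24 h, 0.066). Leaving out each library in turn, 25 of 29 member calls at 24 h, 23 of 26 at 72 h and 24 of 26 at 72 h against 24 h held in all 9 fits. In total 1731 member values were on the same side of the threshold under an alternative, values that changed sign and were called in neither fit included. With the direction kept, 58 lost and 26 gained a call. The 18 values whose sign changed with a call in at least 1 fit are those listed above and are counted apart. In an alternative chosen after seeing the data, genes were left out of the hydrolase sum (1.22 times untreated at 24 h and 1.45 at 72 h). The sum was 0.98 and 1.28 times without PSAP and CTSL, and 0.92 and 1.18 without CTSD as well. Each value is over the untreated sum of the same genes, and the genes left out had all risen at both times. The ATAC count of 19 members became 3 at a -log10 q of at least 5 and 1 when a peak had to cover 0.5 of the window or more. Depth is unknown for RNA, so no limit from counts can be given.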
